A study of Mus musculus with 48 samples.

Results

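The 9 genes described here are the perilipins Plin2, Plin3, Plin4 and Plin5, the lipase inhibitor G0s2 and the lipases Pnpla2, Pnpla3, Mgll and Lipe. They were chosen by gene name: every probe of the array that was not a control and carried one of these symbols was taken, 15 of 56605 probes. Of these, 14 passed the filter on dim probes and all 9 genes kept a probe, among 20486 genes with a probe kept. Where a gene had several kept probes, the brightest stood for it and the others are given beside it.

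RNA from whole liver of 48 male mice was measured, 1 array per mouse and 6 mice in each of 8 groups. All mice carried a floxed gene for p110α, the catalytic subunit of a phosphoinositide 3-kinase that acts downstream of the insulin receptor. The p110αhep-/- mice (LKO in the plots) also carried albumin-Cre, a recombinase driven by the albumin promoter, which is active in hepatocytes, and the p110αhep+/+ mice (LWT in the plots) did not. From 12 weeks of age the mice received control (CTRL) diet or a high-fat diet (HFD) with 60% of calories from fat for 12 weeks, and they were killed at ZT16 (16 h after lights on), fed or after 24 h of fasting. The albumin promoter is used to direct the deletion to hepatocytes, and the allele in other liver cells was not measured here.

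Triglyceride in a hepatocyte is stored in lipid droplets, whose surface is coated by perilipins. Adipose triglyceride lipase (ATGL, encoded by Pnpla2) takes the first fatty acid from a triglyceride, hormone-sensitive lipase (HSL, encoded by Lipe) acts on diglyceride, and monoacylglycerol lipase (encoded by Mgll) releases the last fatty acid and glycerol. G0s2 binds and inhibits ATGL, and Pnpla3 is a relative of ATGL that sits on droplets and whose transcription is driven by insulin and carbohydrate feeding.

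Between 50.1% and 57.4% of probes were well above background on each array, and no spot was saturated. All 7 hepatocyte markers were above background on every array, and their summed level was between 20.34 and 20.49 (log2) over the 48 arrays. The brightest, such as Alb (18.82 to 18.95), weigh most in this sum, while Cyp3a11 ran from 12.96 to 15.54. By genotype 2, 2, 1 and 1 of the 7 were higher and 0, 1, 1 and 1 lower in CTRL diet fed, CTRL diet fasted, HFD fed and HFD fasted p110αhep-/- mice. Of all genes, 21.7%, 24.9%, 33% and 36.9% were called by genotype in the same order. Fasting raised 2, 3, 2 and 1 and lowered 1, 0, 1 and 0 in p110αhep+/+ CTRL, p110αhep+/+ HFD, p110αhep-/- CTRL and p110αhep-/- HFD livers. Of all genes, 32.6%, 28.6%, 35.5% and 28.6% were called with fasting in the same order. The probe for Pik3ca, which encodes p110α, was not lower in p110αhep-/- livers, and in 3 of 4 comparisons it was called higher. Its log2 differences between genotypes were 0.39, 0.08, 0.58 and 0.25 in CTRL diet fed, CTRL diet fasted, HFD fed and HFD fasted mice (adjusted p = 0.0004029, 0.5232, 2.735e-07 and 0.01723), and whether it lies in the deleted part of the gene was not determined here, so it gave no check of the labels and the direction of each genotype comparison rests on them. Replicate 2 of the fed p110αhep+/+ mice on CTRL diet and replicate 3 of the fed p110αhep-/- mice on HFD lay nearer to the fed p110αhep-/- mice on CTRL diet than to their own group. Results that rest on either array are given with and without it.

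The 5′ flanks of 5 members are shown because the results turn on these droplet coat proteins, on ATGL and on its relative Pnpla3, and because Plin4 and Plin5 are neighbours on chromosome 17. Each is the 250 bases before the start of the RefSeq transcript (GRCm38.p6), 5′ to 3′ in the direction of transcription, with matches to the motifs named after them in capitals. They lie at chr4:86670060-86670309 (minus strand) for Plin2, chr17:56109783-56110032 (minus) for Plin4, chr17:56117549-56117798 (minus) for Plin5, chr7:141454938-141455187 (plus) for Pnpla2 and chr15:84167566-84167815 (plus) for Pnpla3.
Plin2: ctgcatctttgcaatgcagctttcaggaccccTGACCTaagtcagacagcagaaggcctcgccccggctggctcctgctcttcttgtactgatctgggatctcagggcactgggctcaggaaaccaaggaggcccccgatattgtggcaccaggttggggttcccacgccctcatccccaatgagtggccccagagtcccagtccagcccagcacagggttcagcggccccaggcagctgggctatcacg
Plin4: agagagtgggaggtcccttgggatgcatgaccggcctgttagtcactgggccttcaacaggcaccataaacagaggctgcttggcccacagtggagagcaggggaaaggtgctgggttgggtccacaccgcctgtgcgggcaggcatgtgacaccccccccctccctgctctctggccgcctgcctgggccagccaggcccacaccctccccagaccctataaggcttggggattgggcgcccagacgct
Plin5: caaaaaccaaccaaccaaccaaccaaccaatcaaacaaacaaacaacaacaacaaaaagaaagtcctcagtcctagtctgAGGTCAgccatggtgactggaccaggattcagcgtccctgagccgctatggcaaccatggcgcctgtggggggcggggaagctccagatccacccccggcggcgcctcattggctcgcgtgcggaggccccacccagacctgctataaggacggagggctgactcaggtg
Pnpla2: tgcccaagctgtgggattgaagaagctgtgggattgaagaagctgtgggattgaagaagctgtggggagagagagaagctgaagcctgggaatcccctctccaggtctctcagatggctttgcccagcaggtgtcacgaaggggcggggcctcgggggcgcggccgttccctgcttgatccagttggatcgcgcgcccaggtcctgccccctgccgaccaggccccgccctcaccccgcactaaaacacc
Pnpla3: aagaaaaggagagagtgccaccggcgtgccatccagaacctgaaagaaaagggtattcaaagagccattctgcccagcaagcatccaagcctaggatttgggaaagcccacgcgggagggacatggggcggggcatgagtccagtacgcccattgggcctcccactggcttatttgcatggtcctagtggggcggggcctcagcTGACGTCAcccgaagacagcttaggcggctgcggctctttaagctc

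Searched on both strands were AGGNCANAGGNCA (a direct repeat as bound by PPARα, present in 0.338% of 32851 promoters), a single AGGTCA (14%), TGTTTAC (forkhead factors, 3.17%), TCACNCCAC (SREBP, 1.05%), CACGTG (E-box, 6.02%) and TGACGTCA (cAMP response element, 1.55%). AGGTCA was found 213 bases before the start of Plin2 on the minus strand and 165 bases before the start of Plin5 on the plus strand. TGACGTCA was found 39 bases before the start of Pnpla3. TGTTTAC was found 235 bases before a start of Mgll (minus strand) and 113 bases before a start of Lipe, and CACGTG 39 bases before a start of Mgll and 150 bases before another start of Lipe. None of the 6 was found before the starts of Plin3, Plin4, G0s2 and Pnpla2. These matches describe letters only.

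Fasting raised more of the 9 genes in p110αhep-/- livers on CTRL diet than it lowered. There, 7 rose and 1 fell in the limma fit, where 35.5% of all genes were called at an adjusted p of at most 0.05. In p110αhep+/+ livers on CTRL diet 4 rose and 1 fell (32.6% of all genes called), in p110αhep+/+ livers on HFD 3 rose and 2 fell (28.6%), and in p110αhep-/- livers on HFD 5 rose and 0 fell (28.6%). The fall on CTRL diet in each genotype was that of Pnpla3, as was 1 of the 2 in p110αhep+/+ livers on HFD. Its fasted groups lay at or near background. In each count 1 rise was that of Lipe by its brightest probe. The other Lipe probe was called in p110αhep-/- livers on CTRL diet alone (adjusted p = 0.0194). The median log2 change of the 9 genes was 0.48, -0.001, 0.95 and 0.29 in p110αhep+/+ CTRL, p110αhep+/+ HFD, p110αhep-/- CTRL and p110αhep-/- HFD livers, and that of all genes was within 0.004 of 0.

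Loss of hepatocyte p110α went with lower levels of Plin2, Plin3, Plin4, Plin5, Pnpla3 and Mgll in fed mice. Of the 9 genes, 0 were higher and 6 lower in fed mice on CTRL diet (21.7% of all genes called), and 1 was higher and 6 lower on HFD (33%). In fasted mice 1 was higher and 3 lower on CTRL diet (24.9%), and 1 was higher and 4 lower on HFD (36.9%). The median log2 difference was -0.50 and -0.62 in fed mice on CTRL diet and HFD and 0.04 and -0.37 in fasted mice, against 0.02, 0.03, 0.01 and 0.03 over all genes in the same order. In bulk tissue, fewer cells of a type and less RNA per cell cannot be told apart.

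HFD changed fewer of them. In fed mice 3 rose and 1 fell in p110αhep+/+ livers (24% of all genes called) and 2 rose and 2 fell in p110αhep-/- livers (12.3%). In fasted mice 2 rose and 1 fell in p110αhep+/+ livers (16%), and 0 rose and 3 fell in p110αhep-/- livers (10.8%). Over the 9 genes, 23 of 36 fasting, 14 of 36 diet, 22 of 36 genotype and 12 of 54 interaction results were called, beside 31.3%, 15.8%, 29.1% and 4.32% over all genes. Pnpla3, which lay at or near background in all fasted groups, gave 3, 2, 2 and 3 of these. Of the 71 calls, 46 were kept when each array was left out in turn, and 45 of these were also kept under every other processing in which the gene could be fitted, at the adjusted p alone. Pnpla3, with 9 of the 45, could not be fitted with only probes above background on all arrays. It was kept through fed groups, so its calls that involve fasted groups or fed p110αhep-/- livers on HFD are descriptions. Their being kept adds no support. The calls that were lost are named with their genes, and fold changes are on the log2 scale with array weights. Contrasts that share a group share its 6 arrays. With HFD, 4 of 8 adipocyte markers rose in fed and fasted p110αhep+/+ and in fed p110αhep-/- livers and 1 of 8 in fasted p110αhep-/- livers, and their part in the diet effects was not tested.

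**Figure D1:**
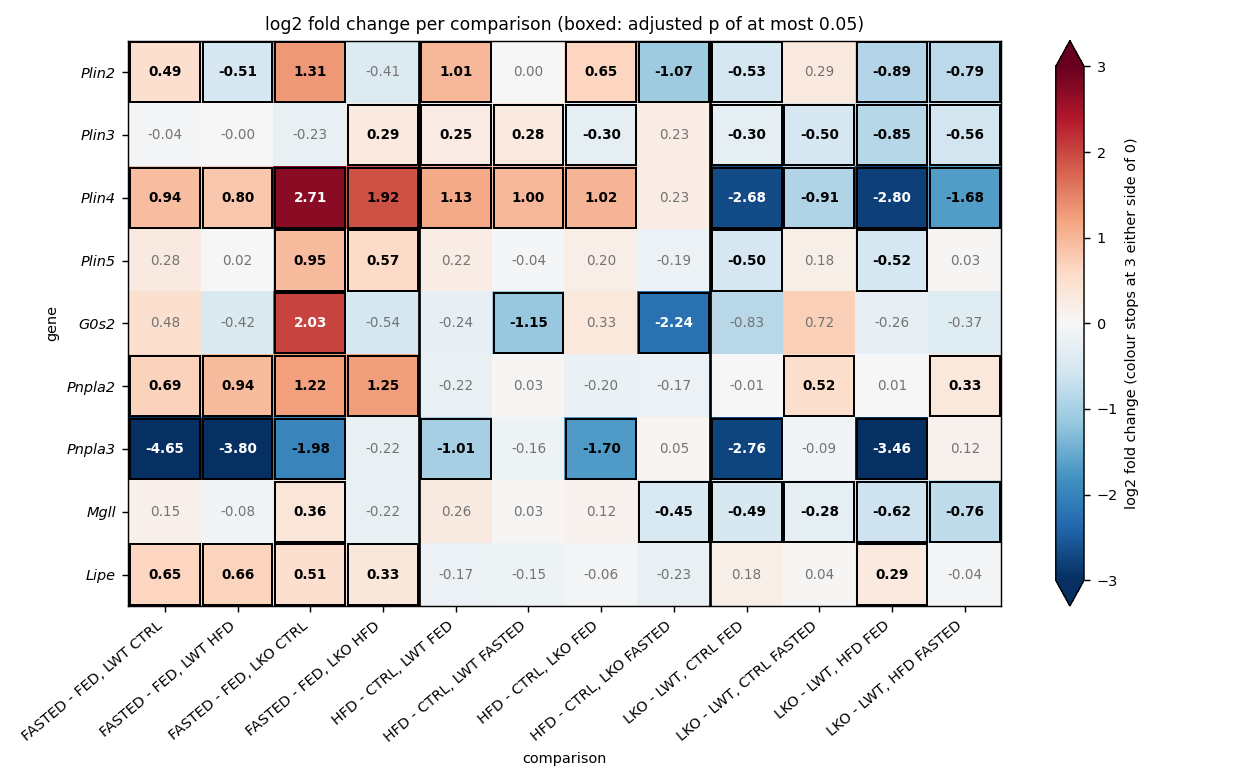
Log2 fold change of each of the 9 genes (rows) in the 12 comparisons of fasting, diet and genotype (columns), with boxes around the changes called in limma at an adjusted p of at most 0.05. Pnpla3, whose fasted groups lie at or near background, falls with fasting in every pair of groups but p110αhep-/- livers on HFD and is lower in fed p110αhep-/- livers, Pnpla2 rises with fasting in every pair of groups, and Plin4 is lower in p110αhep-/- livers in all 4 genotype comparisons.

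Plin4 coats nascent droplets in adipocytes and is measured here in liver with a probe at chr17:56240055-56240114 (mm9, minus strand). In p110αhep+/+ mice on CTRL diet its log2 signal had a lowest, median and highest value of 10.84, 11.99 and 12.49 when fed, and of 12.46, 12.70 and 13.57 when fasted. In p110αhep-/- mice on CTRL diet it was 8.69, 9.32 and 9.61 when fed, and 10.80, 11.99 and 12.75 when fasted. Every fed p110αhep-/- liver was below every other CTRL diet liver. On HFD the p110αhep+/+ livers had 12.77, 12.93 and 13.59 when fed and 13.21, 13.89 and 14.23 when fasted. The p110αhep-/- livers on HFD had 9.04, 10.22 and 11.45 when fed and 11.52, 12.20 and 12.94 when fasted. The fed and fasted p110αhep-/- groups did not overlap on this diet, whereas those of p110αhep+/+ mice did.

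Fed p110αhep-/- livers had 6.42-fold less Plin4 RNA than fed p110αhep+/+ livers on CTRL diet (log2 difference -2.68 ± 0.28 SE, adjusted p = 1.479e-09) and 6.96-fold less on HFD (-2.80 ± 0.28, adjusted p = 1.419e-10). After fasting the difference was -0.91 ± 0.27 on CTRL diet (adjusted p = 0.01085) and -1.68 ± 0.29 on HFD (adjusted p = 1.258e-05). Fasting raised Plin4 by 2.71 ± 0.28 in p110αhep-/- livers on CTRL diet and by 0.94 ± 0.27 in p110αhep+/+ livers, and these rises differed by 1.77 ± 0.39 (adjusted p = 0.005584, where 3.97% of all genes were called for this interaction). Without array weights that adjusted p was 0.05244. The rise with fasting was thus larger in p110αhep-/- livers on CTRL diet. On HFD it was 1.92 ± 0.30 in p110αhep-/- livers and 0.80 ± 0.26 in p110αhep+/+ livers, and the difference of 1.12 ± 0.40 had an adjusted p of 0.1181 (3.49% of all genes called), or 0.03822 without replicate 4 of the fed p110αhep-/- mice.

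HFD also raised Plin4. The change was 1.13 ± 0.27 in fed and 1.00 ± 0.27 in fasted p110αhep+/+ livers (adjusted p = 0.001614 and 0.008784), and 1.02 ± 0.29 in fed p110αhep-/- livers (adjusted p = 0.01651). In fasted p110αhep-/- livers it was 0.23 (adjusted p = 0.6999). The rise in fed p110αhep-/- livers was not called without replicate 4 or 5 of that HFD group (0.78 and 0.87), nor was the rise with fasting in p110αhep+/+ livers on HFD without replicate 2 or 3 of the fasted or 2 or 6 of the fed group (0.69 to 0.74). Within the 2 washing batches every called Plin4 change had the same sign.

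**Figure D2:**
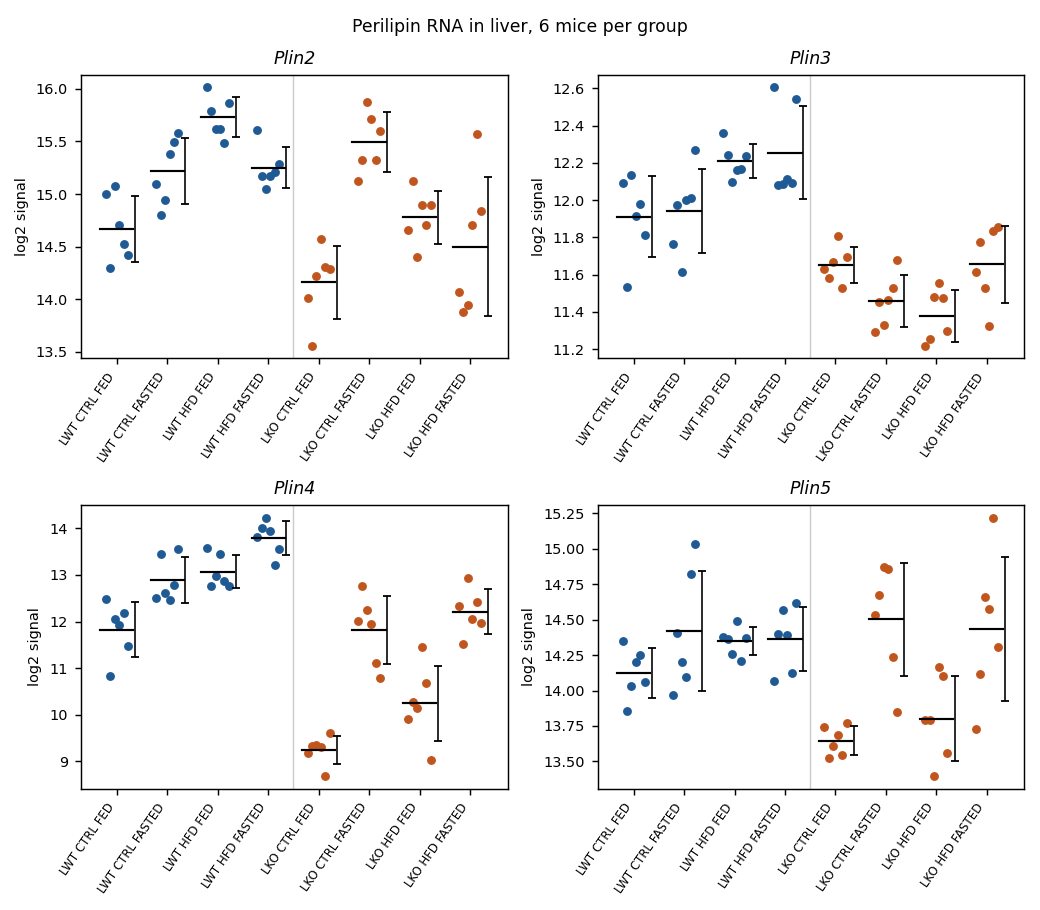
Normalized log2 median signal of the 4 perilipin genes in each of the 48 livers (points), by group, with the group mean (line) and SD (bar), n = 6. Plin4 is lowest in fed p110αhep-/- livers on CTRL diet (LKO), at 8.69 to 9.61, and Plin2 is highest in fed p110αhep+/+ livers on HFD (LWT), at 15.48 to 16.02.

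Plin2, or adipophilin, is the main droplet coat protein of hepatocytes and is stabilised by the lipid it covers. Its probe lies at chr4:86302847-86302906 (mm9, minus strand). On CTRL diet the log2 signal of p110αhep+/+ livers had a lowest, median and highest value of 14.30, 14.62 and 15.08 when fed and 14.80, 15.24 and 15.58 when fasted. That of p110αhep-/- livers was 13.56, 14.26 and 14.57 when fed and 15.12, 15.46 and 15.88 when fasted. All fasted p110αhep-/- livers were above all fed ones, while the p110αhep+/+ groups overlapped. On HFD the order turned, with 15.48, 15.71 and 16.02 in fed and 15.05, 15.19 and 15.61 in fasted p110αhep+/+ livers. In p110αhep-/- livers on HFD the values were 14.40, 14.80 and 15.12 when fed and 13.87, 14.38 and 15.57 when fasted, so the range of the fasted group enclosed that of the fed group.

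Fasting raised Plin2 2.48-fold in p110αhep-/- livers on CTRL diet (log2 change 1.31 ± 0.18 SE, adjusted p = 1.754e-07), and it also raised Plin2 in p110αhep+/+ livers (0.49 ± 0.18, adjusted p = 0.03199). The latter was not called without replicate 4, 5 or 6 of the fasted or 2, 5 or 6 of the fed group (0.41 to 0.45, adjusted p up to 0.101), among them the fed replicate 2 that lay nearer to another group (0.44, adjusted p = 0.0619), nor with the replicate number as a block (0.46, adjusted p = 0.0579). On HFD fasting lowered Plin2 in p110αhep+/+ livers (-0.51 ± 0.17, adjusted p = 0.02169), a change not called without fasted replicate 3 or fed replicate 6 (-0.46 for each) or with the block (-0.46, adjusted p = 0.06553). On HFD the change in p110αhep-/- livers was -0.41 ± 0.20 (adjusted p = 0.1262), and without fasted replicate 5 it was -0.63 (adjusted p = 0.007953).

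The fasting response of Plin2 differed between diets in both genotypes. The change on HFD minus that on CTRL diet was -1.0 ± 0.25 in p110αhep+/+ livers (adjusted p = 0.02081, where 2.36% of all genes were called) and -1.72 ± 0.27 in p110αhep-/- livers (adjusted p = 2.26e-05, where 8% were called). The former was not called without fasted replicate 5 or 6 or fed replicate 6 of the CTRL diet groups (-0.93 to -0.92) or with the replicate block (-0.92, adjusted p = 0.06522). Within the washing batches the difference was -1.09 and -0.97 in p110αhep+/+ livers and -1.22 and -2.02 in p110αhep-/- livers.

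HFD raised Plin2 2.01-fold in fed p110αhep+/+ livers (1.01 ± 0.17, adjusted p = 3.223e-05) with no overlap between the groups. In fed p110αhep-/- livers it raised Plin2 by 0.65 ± 0.19 (adjusted p = 0.02034), which was not called without replicate 2 of either group (0.55 and 0.57). In fasted mice the effect of HFD was 0.00 in p110αhep+/+ livers and -1.07 ± 0.19 in p110αhep-/- livers (adjusted p = 0.0001171), and these differed by -1.08 ± 0.26 (adjusted p = 0.01079, where 5.09% of all genes were called). Plin2 was lower in p110αhep-/- livers on HFD, with log2 differences of -0.89 ± 0.18 when fed (adjusted p = 0.0001931) and -0.79 ± 0.19 when fasted (adjusted p = 0.001034). In fed mice on CTRL diet it was also lower (-0.53 ± 0.18, adjusted p = 0.03384), a call lost without replicate 1, 2 or 3 of the p110αhep-/- or 1 or 3 of the p110αhep+/+ group (-0.54 to -0.42). In fasted mice on CTRL diet the difference was 0.29 (adjusted p = 0.2447). A further Plin2 probe gave fasting changes of 0.59, -0.52, 1.51 and -0.38, with the same 3 calls. The fasting response on CTRL diet differed between genotypes by 0.82 ± 0.25 (adjusted p = 0.05605), and this was called with the further probe (0.92, adjusted p = 0.03012) and without p110αhep-/- fasted replicate 1 or fed replicate 4 or p110αhep+/+ fasted replicate 5 or 6 or fed replicate 2 or 6 (0.87 to 0.92). Fed replicate 2 is the array that lay nearer to another group, and without it the difference was 0.87 (adjusted p = 0.0384).

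**Figure D3:**
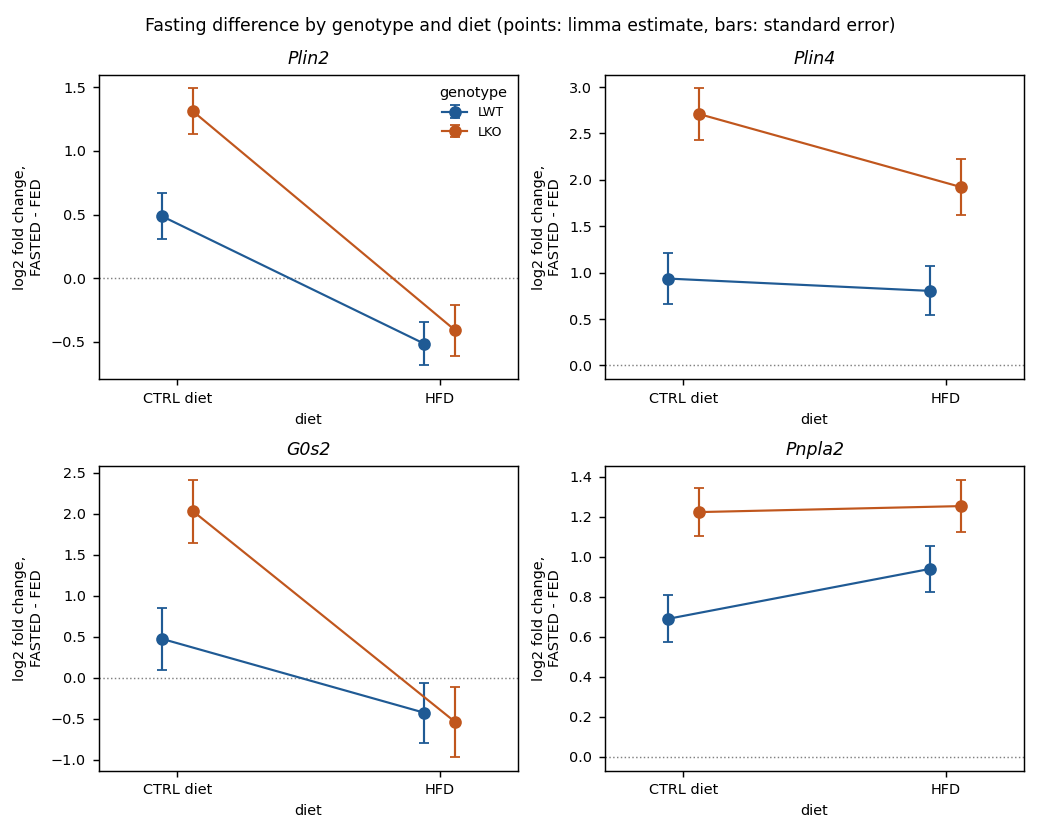
Log2 change with fasting (fasted minus fed, points; bars are the SE from limma) on CTRL diet and HFD in p110αhep+/+ (LWT) and p110αhep-/- (LKO) livers, for Plin2, Plin4, G0s2 and Pnpla2. In p110αhep-/- livers the change of Plin2 goes from 1.31 on CTRL diet to -0.41 on HFD, that of G0s2 from 2.03 to -0.54, and those of Plin4 and Pnpla2 stay above 0 on both diets.

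Plin5 is the perilipin of oxidative tissues and binds ATGL, its coactivator Abhd5 and mitochondria. Its log2 signal (chr17:56251025-56251084, mm9, minus strand) had a lowest, median and highest value of 13.52, 13.65 and 13.77 in fed p110αhep-/- mice on CTRL diet and of 13.85, 14.60 and 14.87 after fasting. In fed p110αhep+/+ mice on CTRL diet it was 13.85, 14.13 and 14.35, and in fasted ones 13.97, 14.30 and 15.03. The fed p110αhep-/- group was below each of the others on CTRL diet with no overlap.

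Fasting raised Plin5 1.94-fold in p110αhep-/- livers on CTRL diet (0.95 ± 0.16 SE, adjusted p = 6.221e-06) and 1.48-fold on HFD (0.57 ± 0.17, adjusted p = 0.01261), the latter not called without fasted replicate 5 (0.41, adjusted p = 0.07288). In p110αhep+/+ livers the changes were 0.28 and 0.02 on CTRL diet and HFD (adjusted p = 0.177 and 0.9542). The difference between genotypes in the fasting response on CTRL diet, 0.67 ± 0.22, had an adjusted p of 0.07842 and was called without replicate 5 or 6 of either fasted group (0.74 to 0.80). Plin5 was lower in fed p110αhep-/- livers on CTRL diet (-0.50 ± 0.16, adjusted p = 0.02327) and on HFD (-0.52 ± 0.16, adjusted p = 0.01143). The first of these was not called without p110αhep-/- replicate 3 or p110αhep+/+ replicate 1 or 5 (-0.48 to -0.45), nor with the other Plin5 probe (-0.40, adjusted p = 0.0898). The effects of HFD were between -0.19 and 0.22 and none was called.

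Plin3, formerly TIP47, is a perilipin found in the cytosol that moves to new droplets (probe at chr17:56418429-56418488, mm9, minus strand). Its 8 group medians lay between 11.39 and 12.20. It was lower in p110αhep-/- livers in all 4 genotype comparisons. The log2 difference was -0.30 ± 0.10 and -0.50 ± 0.09 (SE) in fed and fasted mice on CTRL diet (adjusted p = 0.02327 and 8.762e-05) and -0.85 ± 0.10 and -0.56 ± 0.10 on HFD (adjusted p = 4.41e-09 and 2.84e-05). On HFD the fed p110αhep-/- livers had a lowest, median and highest value of 11.22, 11.39 and 11.55, and the p110αhep+/+ livers had 12.10, 12.20 and 12.36. The genotypes did not overlap on HFD in either state, and on CTRL diet they did.

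Each Plin3 call for diet, fasting or an interaction was lost without at least 1 array. The call in fed mice on CTRL diet was lost without p110αhep-/- replicate 3 or 5 or p110αhep+/+ replicate 1 or 3 (-0.30 to -0.24). In fed mice HFD changed Plin3 by 0.25 ± 0.09 in p110αhep+/+ livers and by -0.30 ± 0.10 in p110αhep-/- livers, and these differed by -0.55 ± 0.14 (adjusted p = 0.02209, where 3.03% of all genes were called). Each diet effect was lost without 8 of its 12 arrays in turn, where p110αhep+/+ kept it without CTRL replicate 1 or 3 or HFD replicate 3 or 5 and p110αhep-/- kept it without CTRL replicate 5 or HFD replicate 3, 4 or 5. Without the array of the p110αhep+/+ CTRL diet group that lay nearer to another group, replicate 2, the first was 0.20 (adjusted p = 0.1137), and with the replicate block it was 0.23 and not called. The difference was lost without p110αhep-/- HFD replicate 1 or 2 (-0.51 for each). In fasted p110αhep+/+ livers HFD raised Plin3 by 0.28 ± 0.09, lost without CTRL replicate 1 or 3 or HFD replicate 1 or 6 (0.20 to 0.25), and within the washing batches it was 0.61 and 0.02. Fasting raised it in p110αhep-/- livers on HFD by 0.29 ± 0.11, lost without fasted replicate 2, 5 or 6 or fed replicate 1, 2 or 6 (0.25 to 0.28). The change with fasting in these livers differed between diets by 0.52 ± 0.14 (adjusted p = 0.01682), or 0.48 (adjusted p = 0.05079) without fed replicate 2 on HFD. On CTRL diet the fasting change in p110αhep-/- livers was -0.23 (adjusted p = 0.05886), called without fasted replicate 5 or 6 (-0.25 and -0.26).

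G0s2 is a small protein that binds ATGL and blocks its lipase activity. The log2 signal (probe at chr1:195098925-195098984, mm9, minus strand) varied widely among mice of the same group. In p110αhep-/- mice on CTRL diet the lowest, median and highest values were 11.85, 12.95 and 13.68 when fed and 14.08, 14.98 and 15.26 when fasted. In p110αhep-/- mice on HFD they were 11.41, 12.90 and 14.72 when fed and 11.98, 12.71 and 13.99 when fasted. Fasting separated the groups on CTRL diet and did not on HFD. In p110αhep+/+ mice the values on CTRL diet were 12.94, 13.58 and 14.59 when fed and 13.27, 14.25 and 14.61 when fasted. On HFD they were 12.91, 13.44 and 14.63 when fed and 12.35, 13.08 and 13.60 when fasted. All 4 groups of p110αhep+/+ mice overlapped.

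Fasting raised G0s2 4.08-fold in p110αhep-/- livers on CTRL diet (log2 change 2.03 ± 0.38 SE, adjusted p = 4.78e-05). On HFD the change was -0.54 ± 0.42 (adjusted p = 0.3808). It ran from -0.94 to -0.11 over the alternatives, single arrays left out included, and was called in none. The changes on the 2 diets differed by -2.57 ± 0.57 (adjusted p = 0.002569), and within the washing batches the difference was -1.37 and -3.08. In p110αhep+/+ livers the changes were 0.48 and -0.42 on CTRL diet and HFD, and their difference of -0.90 had an adjusted p of 0.4137. The rise on CTRL diet differed between genotypes by 1.55 ± 0.54 (adjusted p = 0.0943), so a difference between genotypes in the response was not called. In fasted mice HFD lowered G0s2 4.73-fold in p110αhep-/- livers (-2.24 ± 0.40, adjusted p = 0.0001455) and 2.21-fold in p110αhep+/+ livers (-1.15 ± 0.37, adjusted p = 0.03185). The latter call was lost without CTRL replicate 3, 5 or 6 or HFD replicate 1, 2 or 6 (-1.12 to -1.05). None of the 4 genotype differences in G0s2 (-0.83 to 0.73) was called.

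Pnpla2 encodes ATGL, the main triglyceride lipase of the hepatocyte (probe at chr7:148645928-148645987, mm9, plus strand). On CTRL diet the lowest, median and highest log2 signals were 11.64, 12.05 and 12.54 in fed and 12.56, 12.70 and 12.92 in fasted p110αhep+/+ livers. Those of p110αhep-/- livers were 11.54, 12.01 and 12.59 when fed and 13.09, 13.24 and 13.60 when fasted. Fed and fasted livers did not overlap in either genotype. On HFD the p110αhep+/+ livers had 11.56, 11.80 and 12.15 when fed and 12.51, 12.80 and 12.95 when fasted. The p110αhep-/- livers on HFD had 11.64, 11.81 and 12.11 when fed and 12.75, 13.11 and 13.33 when fasted, again with no overlap. In the order of the group medians the 4 fasted groups came before the 4 fed groups, and the only neighbours whose ranges did not overlap were the fasted and fed p110αhep+/+ groups on CTRL diet. In each of the other 8 genes all neighbours in that order overlapped.

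Fasting raised Pnpla2 in all 4 pairs of groups, by 0.69 ± 0.12 (SE) and 0.94 ± 0.11 in p110αhep+/+ livers on CTRL diet and HFD (adjusted p = 1.3e-05 and 2.198e-08) and by 1.22 ± 0.12 and 1.25 ± 0.13 in p110αhep-/- livers (adjusted p = 5.866e-11 and 1.548e-09). These are 1.61-fold, 1.92-fold, 2.33-fold and 2.38-fold rises. Each call was kept when any 1 array was left out. The genotypes differed in the rise by 0.53 ± 0.17 on CTRL diet (adjusted p = 0.06299), which was called without p110αhep-/- fed replicate 1 or p110αhep+/+ fed replicate 2 or 6 (0.57 to 0.65), and by 0.31 on HFD (adjusted p = 0.3749). In fed mice Pnpla2 differed by -0.01 and 0.01 between genotypes on CTRL diet and HFD. In fasted mice it was higher in p110αhep-/- livers by 0.52 ± 0.12 on CTRL diet (adjusted p = 0.0008311, no overlap) and by 0.33 ± 0.13 on HFD (adjusted p = 0.03936). The latter was lost without p110αhep-/- replicate 1, 3, 4 or 5 or p110αhep+/+ replicate 2, 3 or 6 (0.27 to 0.34, adjusted p up to 0.1229). No effect of HFD on Pnpla2 (-0.22 to 0.03) was called.

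**Figure D4:**
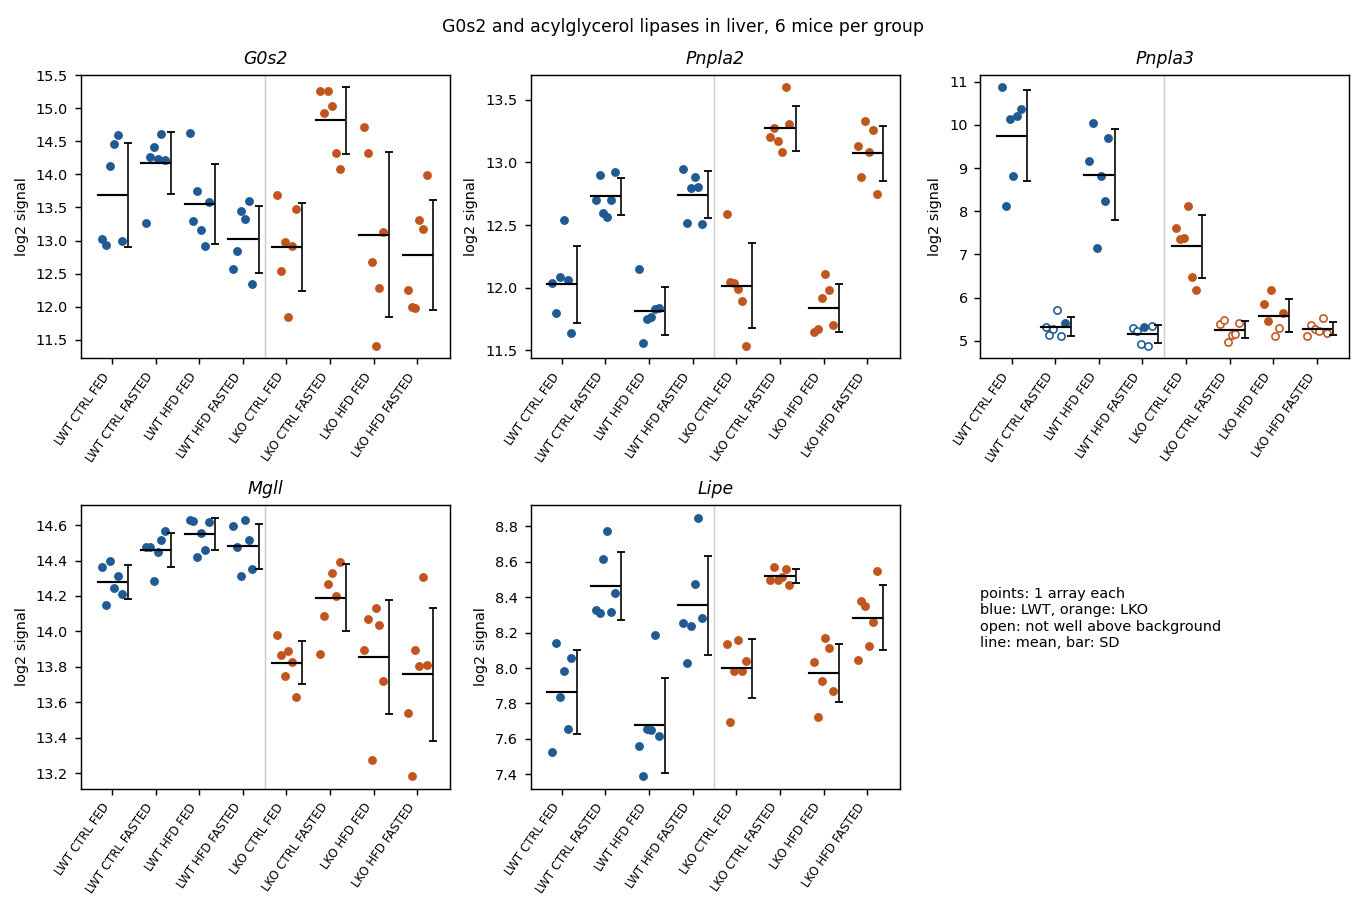
Normalized log2 median signal of G0s2, Pnpla2, Pnpla3, Mgll and Lipe in each of the 48 livers (points; open where the probe was not well above background), by group, with the group mean (line) and SD (bar), n = 6. Pnpla3 is above background on 6 of 6 arrays in the fed p110αhep+/+ groups (LWT) and on at most 1 of 6 arrays in each fasted group.

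Pnpla3 encodes adiponutrin, a droplet protein related to ATGL. It passed the filter on dim probes through fed groups alone. In fed p110αhep+/+ mice the lowest, median and highest log2 signals (probe at chr15:84019823-84019882, mm9, plus strand) were 8.12, 10.18 and 10.87 on CTRL diet and 7.14, 8.99 and 10.04 on HFD. In fed p110αhep-/- mice they were 6.17, 7.38 and 8.12 on CTRL diet and 5.10, 5.55 and 6.18 on HFD, where 4 of 6 arrays were well above background. The genotypes did not overlap in fed mice on either diet, though on CTRL diet their ranges met to the decimals shown. Fasted livers lay between 4.89 and 5.72 in all 4 groups. The probe was well above background there on 1 of 6 arrays in each p110αhep+/+ group and on 0 of 6 in each p110αhep-/- group.

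Fasted p110αhep+/+ livers were below fed ones on CTRL diet and on HFD with no overlap. The fitted log2 changes, -4.65 and -3.80, are descriptions, since the gene was kept through its fed groups and 1 of 6 fasted arrays was above background in each. They ran from -6.72 to -3.60 and from -6.35 to -2.67 over the alternatives. In p110αhep-/- livers on CTRL diet the fed level was at least 3.47-fold higher than the fasted one, a bound against the lowest signal well above background. On HFD the fed and fasted ranges overlapped and the change was not called (adjusted p = 0.7014). Interactions with fasting were called in the fit for genotype on both diets and for diet in p110αhep-/- livers, but all 4 fasted groups lay at or near background, so they repeat the differences between fed groups and are no measure of the fasting response. The interaction with diet also depended on the probe, since it was called in p110αhep-/- livers by the brightest (adjusted p = 0.01484) and not by the other (adjusted p = 0.2803), which called it in p110αhep+/+ livers (adjusted p = 0.02662).

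In fed mice Pnpla3 was 6.78-fold lower in p110αhep-/- livers on CTRL diet (-2.76 ± 0.32, adjusted p = 1.854e-08). On HFD it was lower too, with no overlap, but only 4 of 6 p110αhep-/- arrays were above background. The gene was not kept through that group, so the fitted difference of -3.46 is a description. This difference ran from -5.12 to -2.51 over the alternatives. The fitted change with HFD in fed p110αhep-/- livers, -1.70, is a description for the same reason. Over the alternatives it ran from -3.04, with the background-subtracted signal of the scanner software, to -1.20. By this fit HFD went with lower Pnpla3, though the groups overlapped. In fed p110αhep+/+ livers HFD changed it by -1.01 ± 0.30 (adjusted p = 0.01403), but this was 0.29 in washing batch 1 and -2.08 in washing batch 2, and the call was lost without CTRL replicate 1 or HFD replicate 3 (-0.81 and -0.72). It was the only one of the calls for fasting, diet and genotype whose sign differed between the batches. A further probe, in an earlier part of the transcript (position 1137, chr15:84016440-84016499, mm9), was above background on 6 of 6 arrays in both fed p110αhep+/+ groups, on 5 of 6 in fed p110αhep-/- mice on CTRL diet, on 0 of 6 in fed p110αhep-/- mice on HFD and on at most 1 of 6 in each fasted group. By it the genotype difference in fed mice on CTRL diet was -1.87 and the diet effect in fed p110αhep+/+ livers was -1.02 (adjusted p = 5.828e-05). Its other changes were set against groups at or near background, and no size is given.

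Mgll encodes monoacylglycerol lipase (probe at chr6:88778292-88778351, mm9, plus strand). In fed mice on CTRL diet the lowest, median and highest log2 signals were 14.15, 14.28 and 14.40 in p110αhep+/+ and 13.63, 13.85 and 13.98 in p110αhep-/- livers. In fasted mice on HFD they were 14.31, 14.50 and 14.63 and 13.18, 13.81 and 14.31. The genotypes did not overlap in either comparison, though in fasted mice on HFD their ranges met to the decimals shown. By the other Mgll probe, given below, they overlapped in fasted mice on HFD. Mgll was lower in p110αhep-/- livers in all 4 comparisons. The log2 difference was -0.49 ± 0.10 (SE) in fed mice on CTRL diet (adjusted p = 0.0006308), -0.62 ± 0.10 in fed mice on HFD (adjusted p = 1.039e-05) and -0.76 ± 0.11 in fasted mice on HFD (adjusted p = 4.68e-07). In fasted mice on CTRL diet it was -0.28 ± 0.10 (adjusted p = 0.04153), a call lost without 8 of the 12 arrays in turn and kept only without p110αhep-/- replicate 4, 5 or 6 or p110αhep+/+ replicate 3 (-0.29 to -0.19 where lost), and lost with the replicate block (-0.26).

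Mgll rose by 0.36 ± 0.10 with fasting in p110αhep-/- livers on CTRL diet (adjusted p = 0.005733). On HFD the change there was -0.22 (adjusted p = 0.1648), called without fasted replicate 5 (-0.34). HFD lowered Mgll in fasted p110αhep-/- livers (-0.45 ± 0.11, adjusted p = 0.004145), and the fasting response differed between diets by -0.58 ± 0.15 (adjusted p = 0.0144). Both calls were lost without fasted HFD replicate 2 (-0.29 and -0.41). The genotype difference in fasted mice moved with diet by -0.49 ± 0.15 (adjusted p = 0.04658), which was lost with the replicate block (-0.49) and without 16 of its 24 arrays in turn (-0.51 to -0.32). It was kept without p110αhep-/- replicate 1 or 2 on CTRL diet or 4, 5 or 6 on HFD, or p110αhep+/+ replicate 2 on CTRL diet or 3 or 6 on HFD. In fed p110αhep+/+ livers the effect of HFD was 0.26 (adjusted p = 0.05681), called without HFD replicate 3 or 5 (0.28 for each). A probe for another RefSeq transcript variant of Mgll (chr6:88714636-88714695, mm9) gave genotype differences of -0.59, -0.26, -0.55 and -0.80 in CTRL diet fed, CTRL diet fasted, HFD fed and HFD fasted mice. With it the fall with fasting in p110αhep-/- livers on HFD was called (-0.42, adjusted p = 0.01382), whereas the rise with fasting on CTRL diet (0.26, adjusted p = 0.09025), the genotype difference in fasted mice on CTRL diet (adjusted p = 0.09237) and its difference between diets (-0.54, adjusted p = 0.05479) were not.

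Lipe encodes HSL, and its probes gave different answers. The brightest (chr7:26167986-26168045, mm9, minus strand) was designed on a testis cDNA. Its lowest, median and highest log2 signals on CTRL diet were 7.53, 7.91 and 8.14 in fed and 8.31, 8.38 and 8.77 in fasted p110αhep+/+ livers, and 7.70, 8.01 and 8.16 in fed and 8.47, 8.51 and 8.57 in fasted p110αhep-/- livers. Fed and fasted groups on CTRL diet did not overlap. By this probe fasting raised Lipe by 0.65 ± 0.11 and 0.66 ± 0.11 (SE) in p110αhep+/+ livers on CTRL diet and HFD (adjusted p = 1.044e-05 and 4.729e-06) and by 0.51 ± 0.11 and 0.33 ± 0.12 in p110αhep-/- livers (adjusted p = 0.0003778 and 0.03965). The last was lost without fasted replicate 2, 3, 5 or 6 or fed replicate 1, 2 or 6 (0.25 to 0.33).

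The probe designed on the RefSeq mRNA of Lipe, at chr7:26165828-26165887 (mm9, minus strand), is shown because it changes these calls.
Lipe probe: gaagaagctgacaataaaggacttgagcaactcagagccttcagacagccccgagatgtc
By it the fasting changes were 0.20, 0.20, 0.29 and 0.10 in p110αhep+/+ CTRL, p110αhep+/+ HFD, p110αhep-/- CTRL and p110αhep-/- HFD livers, and the third alone was called (adjusted p = 0.0194). Over the 18 contrasts the 2 probes had the same sign in 11. With the median over both, the changes on CTRL diet and HFD in p110αhep+/+ livers were 0.42 and 0.43, and that in p110αhep-/- livers on HFD was 0.21 and no longer called. By the brightest probe Lipe was higher in fed p110αhep-/- livers on HFD by 0.29 ± 0.11 (adjusted p = 0.04497), and by the other it was -0.20 (adjusted p = 0.1281). The call by the brightest probe was lost without 10 of its 12 arrays in turn, kept only without p110αhep-/- replicate 2 or p110αhep+/+ replicate 5, and was 0.29 (adjusted p = 0.05597) without the p110αhep-/- replicate 3 that lay nearer to another group and 0.28 with the replicate block. Within the washing batches it was 0.58 and 0.02. In fasted mice on HFD the other probe was lower in p110αhep-/- livers (-0.29, adjusted p = 0.02384), where the brightest gave -0.04 and was not called. A further Lipe probe was not kept.

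Some markers of other cell types were also called between genotypes. Of all genes, 21.7%, 24.9%, 33% and 36.9% were called in CTRL diet fed, CTRL diet fasted, HFD fed and HFD fasted mice. Several of the counts below lie near these shares. Of 8 adipocyte markers kept of 10 on the array, 4 were lower in p110αhep-/- livers in each comparison except fed mice on HFD, where 3 were lower and 1 was higher. The summed log2 level of the adipocyte list was between 16.61 and 17.94 in p110αhep+/+ livers and between 14.59 and 17.51 in p110αhep-/- livers, and the defining marker Adipoq was above background on 6 of 48 arrays. The brightest, such as Car3 (14.48 to 17.59), weigh most in this sum, while Retn and Plin1 reached at most 6.48 and 6.11. The sum thus follows few genes and is no measure of adipocyte number. Of 4 cholangiocyte markers, 2 were lower in fed mice on CTRL diet and 3 in each other comparison. Among these 4, Krt7 and Epcam lay near background and were above it on 28 and 18 of 48 arrays. Of 5 endothelial markers, 1, 2, 1 and 4 were higher and 1, 0, 1 and 0 lower in CTRL diet fed, CTRL diet fasted, HFD fed and HFD fasted p110αhep-/- mice, and of 5 stellate cell markers 2, 0, 2 and 2 were higher and 1, 0, 0 and 0 lower. The summed levels over all arrays were 7.86 to 9.19 for cholangiocyte, 13.40 to 14.26 for endothelial, 13.70 to 15.60 for macrophage and 12.48 to 13.47 for stellate cell markers. With fasting, 2, 1, 2 and 0 of 4 cholangiocyte markers fell in p110αhep+/+ CTRL, p110αhep+/+ HFD, p110αhep-/- CTRL and p110αhep-/- HFD livers. Of all genes, 32.6%, 28.6%, 35.5% and 28.6% were called with fasting in these. In the same order 0, 0, 1 and 1 of 5 endothelial markers rose and 0, 2, 0 and 0 fell. Of 5 stellate cell markers 1, 1, 0 and 1 fell, and of 6 macrophage markers 0, 1, 0 and 0 fell. Of 8 adipocyte markers 0, 2, 1 and 0 rose and 0, 0, 1 and 2 fell. Their part in the results of the 9 genes was not tested.

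Among 23 other lipid droplet proteins, 15, 11, 11 and 15 were lower in p110αhep-/- livers and 0, 2, 3 and 1 higher, in CTRL diet fed, CTRL diet fasted, HFD fed and HFD fasted mice, where 21.7%, 24.9%, 33% and 36.9% of all genes were called in either direction. The list's median log2 differences were -0.25, -0.19, -0.15 and -0.35, beside 0.02, 0.01, 0.03 and 0.03 over all genes. Cidec, which fuses droplets, was lower in fed mice on CTRL diet and HFD (-3.87 ± 0.42 SE and -4.39 ± 0.42, adjusted p = 4.379e-09 and 4.962e-11) and in fasted mice on HFD (-3.85 ± 0.43, adjusted p = 3.691e-09). In fasted mice on CTRL diet its difference was -0.36 (adjusted p = 0.5757). Cidea, a relative of Cidec that is also an adipocyte marker, was lower in all 4 comparisons. It was above background on all p110αhep+/+ arrays and on 1, 4, 4 and 5 of 6 p110αhep-/- arrays in the same order as the counts, so no size of the difference is given. Hilpda, a droplet protein that inhibits ATGL, was higher by 0.81 ± 0.13 in fasted p110αhep-/- livers on CTRL diet (adjusted p = 1.142e-05).

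Fasting also changed genes of this list in each pair of groups. In p110αhep-/- livers on CTRL diet 9 rose and 4 fell, with Cidec up by 4.09 ± 0.42 (adjusted p = 1.441e-10) and Hilpda by 1.73 ± 0.14 (adjusted p = 1.99e-13). In p110αhep+/+ livers 5 rose and 5 fell on CTRL diet, 5 rose and 0 fell on HFD, and in p110αhep-/- livers on HFD 3 rose and 7 fell. Of all genes, 35.5% were called in p110αhep-/- livers on CTRL diet, 32.6% and 28.6% in p110αhep+/+ livers on CTRL diet and HFD, and 28.6% in p110αhep-/- livers on HFD. HFD lowered Cidec and Hilpda in fasted p110αhep-/- livers (-2.13 ± 0.43 and -0.82 ± 0.14, adjusted p = 0.000783 and 0.0001035), where 2 of the list rose and 4 fell. In fed p110αhep+/+ livers HFD raised Cidec by 1.92 ± 0.40 (adjusted p = 0.0004105), where 5 rose and 4 fell. In fasted p110αhep+/+ livers 4 rose and 3 fell with HFD, and in fed p110αhep-/- livers 6 rose and 2 fell. Of all genes, HFD called 24% and 16% in fed and fasted p110αhep+/+ and 12.3% and 10.8% in fed and fasted p110αhep-/- livers.

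Among 27 other lipases and acylglycerol hydrolases, 8, 7, 10 and 12 were lower and 5, 4, 6 and 5 higher in p110αhep-/- livers, in CTRL diet fed, CTRL diet fasted, HFD fed and HFD fasted mice (21.7%, 24.9%, 33% and 36.9% of all genes called). Lpl, which hydrolyses triglyceride of lipoproteins and is low in healthy adult hepatocytes, was higher by 0.70 ± 0.19, 1.05 ± 0.18, 1.39 ± 0.19 and 1.84 ± 0.19 (SE, adjusted p = 0.006369, 2.651e-05, 1.866e-07 and 8.574e-10). Fasting raised 5, 4, 8 and 2 of the list and lowered 5, 7, 8 and 7 in p110αhep+/+ CTRL, p110αhep+/+ HFD, p110αhep-/- CTRL and p110αhep-/- HFD livers, where 32.6%, 28.6%, 35.5% and 28.6% of all genes were called. The list's medians with fasting were 0.01, -0.04, -0.09 and -0.04. In p110αhep+/+ livers Pnpla5, the gene next to Pnpla3, fell with fasting on CTRL diet and HFD, from above background on 6 of 6 fed arrays to 2 of 6 fasted arrays in each, so no size is given. HFD raised 6 and 2 and lowered 5 and 4 in fed and fasted p110αhep+/+ livers, and raised 5 and 5 and lowered 3 and 5 in p110αhep-/- livers (24%, 16%, 12.3% and 10.8% of all genes called).

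The 15 target genes of PPARα, the nuclear receptor of fasting and fatty acids, were listed as fasting-induced. Their rise with fasting thus follows from the choice and is no test. On CTRL diet 13 and 14 rose and 0 and 0 fell with fasting in p110αhep+/+ and p110αhep-/- livers. On HFD 7 and 8 rose and 1 and 2 fell. Of all genes, 32.6% and 35.5% were called with fasting on CTRL diet in p110αhep+/+ and p110αhep-/- livers, and 28.6% and 28.6% on HFD. As an interaction, the fasting response was called lower on HFD than on CTRL diet for 14 of the 15 in p110αhep-/- livers (8% of all genes called). In p110αhep+/+ livers it was called lower for 6 and not called for 9 (2.36%). The list's medians of this difference were -1.075 and -0.692. Pdk4, which blocks pyruvate use, rose by 4.13 with fasting in p110αhep-/- livers on CTRL diet. Of 12 lipogenic genes, 12, 10, 12 and 8 fell with fasting in p110αhep+/+ CTRL, p110αhep+/+ HFD, p110αhep-/- CTRL and p110αhep-/- HFD livers and none of these 12 rose. Of all genes, 32.6%, 28.6%, 35.5% and 28.6% were called in the same order. In fed p110αhep-/- livers 8 and 10 were lower than in p110αhep+/+ livers on CTRL diet and HFD (21.7% and 33% of all genes called). The log2 difference of Acacb on HFD was -3.22.

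Across the 48 arrays the members were most like different genes. These values are descriptions, and the arrays share their groups, so each is followed by its value after the group means were removed. Plin4 was most like Pex11a, a peroxisome division factor (Pearson r = 0.92, 0.52 within groups). Plin5 was most like Osbpl11 (0.84, 0.79), Plin3 like Cpeb1 (0.92, 0.71) and G0s2 like Inhbe, which encodes a secreted inhibin subunit of the liver (0.86, 0.81). Pnpla3 was most like its neighbour Pnpla5 (0.98, 0.81), Pnpla2 like Xpa (0.92, 0.60), Mgll like Mgst1 (0.86, 0.59) and the brightest Lipe probe like Sbno2 (0.84, 0.50). Among the members themselves, Plin2 and Mgll (0.75, 0.63 within groups) and the neighbours Plin4 and Plin5 (0.72, 0.61) had the highest values. Pnpla2 and Lipe had 0.71 over all arrays and 0.02 within groups.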

How the data were processed

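Liver total RNA of 48 mice was labelled with Cy3 and hybridized by the authors to 1-colour Agilent arrays, which were scanned with Feature Extraction 10.10.1.1 per the submitters' processing notes. Per spot, the deposited scanner output holds an intensity that had not been normalized. The authors also deposited log2 values, filtered, corrected for washing batch and quantile normalized, which served as an alternative. Groups, replicate numbers and washing batches are those of the labels, with a separate mouse on each array. No column belonged to another series (0 such columns).

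From the median intensity, spots with an outlier mark, 92 to 151 on an array, were left out, and log2 values of the same probe were averaged. Probes well above background on at least 5 of 6 arrays of 1 group or more were kept (30793 of 56605). The 2 washing batches were removed while keeping the group means, and arrays were quantile normalized. These steps follow the study's methods, so values are relative within the set of arrays, and dim probes are compressed towards the background. A single limma 3.58.1 fit took the 48 arrays with array weights (statmod 1.5.0, R 4.3.3), with 18 contrasts: 4 of fasting, 4 of diet, 4 of genotype and 6 interactions. Benjamini-Hochberg adjustment ran over the kept probes, and a change was called at an adjusted p of at most 0.05. A probe above background on no array of a group was given as a bound. The scripts were tested on simulated data. The number of arrays limits the precision.

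All 9 members are named, with the 1 gene most like each (that of Plin2 is not reported here), and from the lists up to 2 genes in each direction with the largest called change. Members and lists were chosen with earlier results of these data known. Promoters come from RefSeq (GRCm38.p6), where all 9 members matched, and the probe positions are those of the scanner files (mm9). The alternatives were no filter, normexp (offset 50), median scaling, the processed signal scaled to the 75th percentile, probes above background everywhere, washing batch uncorrected, a block of washing batch, slide or replicate number, equal array weights, the deposited log2 values, the median over probes, only the arrays of a contrast, a fold over 1.5 and each array left out in turn.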

Additional observations from a re-analysis of the deposited data

Results flagged for a closer look

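Of 72 sets of 6 arrays (9 genes in 8 groups), 2 held an array whose gap to the others was large for the range of the group. Chance flags about 1 in 20 groups. G0s2 was 13.27 (log2) in replicate 1 of the fasted p110αhep+/+ mice on CTRL diet, where the other 5 had 14.22 to 14.61. The brightest Lipe probe was 8.19 in replicate 5 of the fed p110αhep+/+ mice on HFD, where the others had 7.39 to 7.65.

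Differences between effects were called for 12 combinations of gene and interaction. Between diets, the fasting change of Plin2 differed by -1.0 in p110αhep+/+ and by -1.72 in p110αhep-/- livers. In p110αhep-/- livers it also differed for G0s2 (-2.57), Mgll (-0.58), Plin3 (0.52) and Pnpla3 (1.75). Between genotypes, the fasting change differed for Plin4 on CTRL diet (1.77) and for Pnpla3 on CTRL diet (2.67) and HFD (3.58). All fasted groups lay at or near background for Pnpla3, so its 3 differences repeat those between fed groups. The effect of HFD differed between genotypes in fasted mice for Plin2 (-1.08) and Mgll (-0.49), and in fed mice for Plin3 (-0.55).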

How the results depend on the processing

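Over the 9 genes, 23 fasting, 14 diet, 22 genotype and 12 interaction results were called. With each array left out in turn these counts lay between 21 and 24, 12 and 15, 19 and 22, and 10 and 14. The genotype count fell to 11 when a fold over 1.5 was also required, and no other alternative moved a count by over 1.5 times. No called result changed direction, while some that were not called crossed 0. Of 162 results, 118 kept their side of the threshold under every alternative run, with single arrays left out included. The 18 results of Pnpla3 could not be fitted with only probes above background on all arrays. Without the filter 18 were lost, and without array weights 13. The deposited log2 values lost 2 and gained 0.

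Replicate numbers did not pair the mice: deviations from the group means correlated at 0.018 on average between arrays with the same number (-0.351 to 0.336) and at -0.003 between others, and 9 of 48 arrays correlated best with their own number. With the replicate number as a block 7 calls were lost and 0 gained. These were Plin2 with fasting on CTRL diet (0.46) and HFD (-0.46) in p110αhep+/+ livers and their difference (-0.92), Plin3 with HFD in fed p110αhep+/+ livers (0.23), Mgll by genotype in fasted mice on CTRL diet (-0.26) and its difference between diets (-0.49), and Lipe by genotype in fed mice on HFD (0.28).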
